A study of Mus musculus with 24 samples.

Results

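Pressure overload of the heart was set against sham surgery in mice kept in hypoxia, with 6 hearts on each side and 12 of the 24 libraries of the series. The members were taken by their titles as hypoxia TAC mice 1 to 6 and hypoxia sham mice 1 to 6, and each was joined to its column of raw counts through the library number in the header. All 12 mice were wild-type C57/Bl6J animals in hypoxia, a condition that the labels list under the heading of a cell line. The TAC mice had transverse aortic constriction, in which a suture tied around a blunt 25-G needle narrows the aortic arch downstream of the innominate artery and upstream of the left common carotid artery, and the sham mice had the sham operation. RNA came from the apex of the heart on day 3, and 100 ng of it went into a low-input library. Oxygen level, duration of hypoxia, sex, age, hour of harvest and batch are not given in the labels, which title the libraries as separate samples, so the errors here are spreads between samples.

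A narrowed aorta makes the left ventricle pump against a higher pressure. Cardiomyocytes answer with fetal and stress genes such as the natriuretic peptides, fibroblasts lay down collagen and matricellular proteins, and leukocytes enter the wall. Low oxygen acts through the HIF transcription factors on red cell formation, glycolysis and vessel growth.

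Total counts were 10136915 to 13497973 in hypoxia TAC libraries and 10218681 to 11331860 in hypoxia sham libraries, and 14314 of 40840 genes passed the filter on low counts. Values below are CPM, which are read counts set relative to library sizes scaled by TMM (trimmed mean of M-values), log2 changes are TAC over sham with their standard errors (SE), and adjusted p-values are from edgeR's quasi-likelihood test with Benjamini-Hochberg adjustment over all genes tested. A gene is said to have risen or fallen at an adjusted p under 0.05. Both mitochondrial rRNA genes took 2.03 to 3.92% of the counts in TAC libraries and 2.88 to 3.69% in sham libraries. The 4 globin genes took 0.139 to 0.541% in TAC libraries and 0.108 to 0.223% in sham libraries. The myocyte transcripts Myh6 (at least 14031 CPM in every library) and Ttn (at least 4940.3 CPM) were abundant in all 12 libraries, and Y-linked Ddx3y lay between 109 and 153 CPM in all of them.

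TAC in hypoxia changed 2086 genes (14.6% of those tested), of which 1149 rose (8.03% of the genes tested) and 937 fell (6.55%). At least a 2-fold change was reached by 341 of those that rose and by 153 of those that fell. The median log2 change over all genes tested was 0.012. All 6 TAC mice lay above all 6 sham mice for 356 genes (2.49%) and below all of them for 488 genes (3.41%). The count of called genes moved by more than 1.5 times with single libraries. It was 3605 without TAC mouse 4, 1259 without TAC mouse 3 and 1194 without TAC mouse 5, and it was 1189, 1142, 1030, 969 and 1013 without sham mouse 1, 2, 3, 4 and 6. DESeq2 called 3063 genes. The number of called members of a gene list also depended on single libraries. Leaving out TAC mouse 4 moved it by more than 1.5 times in 24 of 57 lists, and leaving out any 1 of the 12 libraries did so in 8 to 34 lists. The lowest and highest numbers over the 12 fits without 1 library therefore stand beside the lists where they differ. Of 212 called genes named here 97 lost the call in at least 1 of these fits.

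The 6 TAC mice responded to very different degrees, while the 6 sham mice stayed close together. On the first principal component, which held 55.5% of the variance among the 1000 genes that varied most, TAC mice 1 to 6 stood at 10.4, 14.9, 46, -11.5, 24 and 28.1, and the sham mice stood between -22.7 and -15.3. TAC mouse 4 was thus the nearest to the sham mice and TAC mouse 3 the farthest. For each TAC mouse the genes changed at least 2-fold were also chosen without that mouse, and its own distance from the mean of the sham mice was then read on them. On the genes so chosen as higher, the median log2 difference was 0.965, 1.04, 2.04, 0.236, 1.41 and 1.21 in TAC mice 1 to 6, and on those chosen as lower it was -0.681, -0.765, -1.69, -0.269, -1.44 and -1.48. These are descriptions with no test. Of the 341 genes that rose at least 2-fold, TAC mouse 3 had the highest level for 171 and TAC mouse 6 for 92, whereas TAC mouse 4 had the lowest level for 223.

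**Figure D1:**
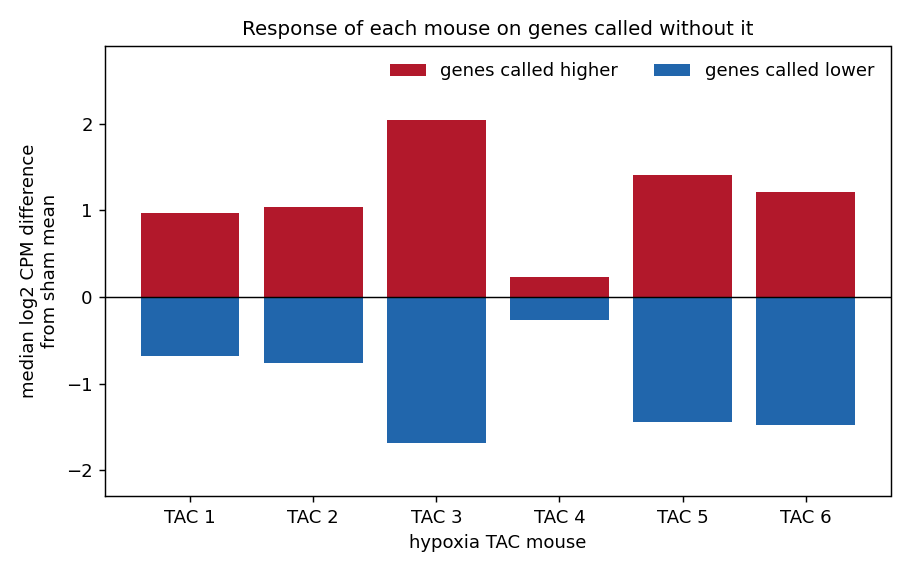
Response of each hypoxia TAC mouse (x axis) on the genes called at least 2-fold in the fit without that mouse (y axis: median log2 CPM difference from the mean of the 6 sham mice; upper bars, genes called higher; lower bars, genes called lower; no error bars, 1 library a bar). TAC mouse 3 stands at 2.04 and -1.69 and TAC mouse 4 at 0.236 and -0.269.

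The kinds of genes raised also differed from mouse to mouse. Over the 13 fibrillar and fibril-associated collagens tested, the median log2 difference from the sham mean was 0.44, 1.86, 1.69, -0.12, 0.69 and -0.20 in TAC mice 1 to 6, against -0.17 to 0.27 in the sham mice. Collagens were therefore high in TAC mice 2 and 3 and near the sham level in TAC mice 4 and 6. Over the 22 glucocorticoid-induced genes the same medians were 1.13, 0.41, 1.69, 0.33, 1.39 and 1.56 in TAC mice 1 to 6, against -0.12 to 0.20 in the sham mice, and TAC mouse 2 was here among the lowest. Over the 23 immediate-early genes they were 1.04, 1.73, 2.52, 0.17, 0.92 and 2.86 in TAC mice 1 to 6, against -0.25 to 0.21 in the sham mice, with TAC mouse 6 at the top although its collagens stayed near the sham level. On the clock repressors and their targets TAC mouse 4 was in the range of the other TAC mice, with medians of 0.76, 0.28, 0.61, 0.51, 0.72 and 0.46 in TAC mice 1 to 6, against -0.17 to 0.09 in the sham mice.

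**Figure D2:**
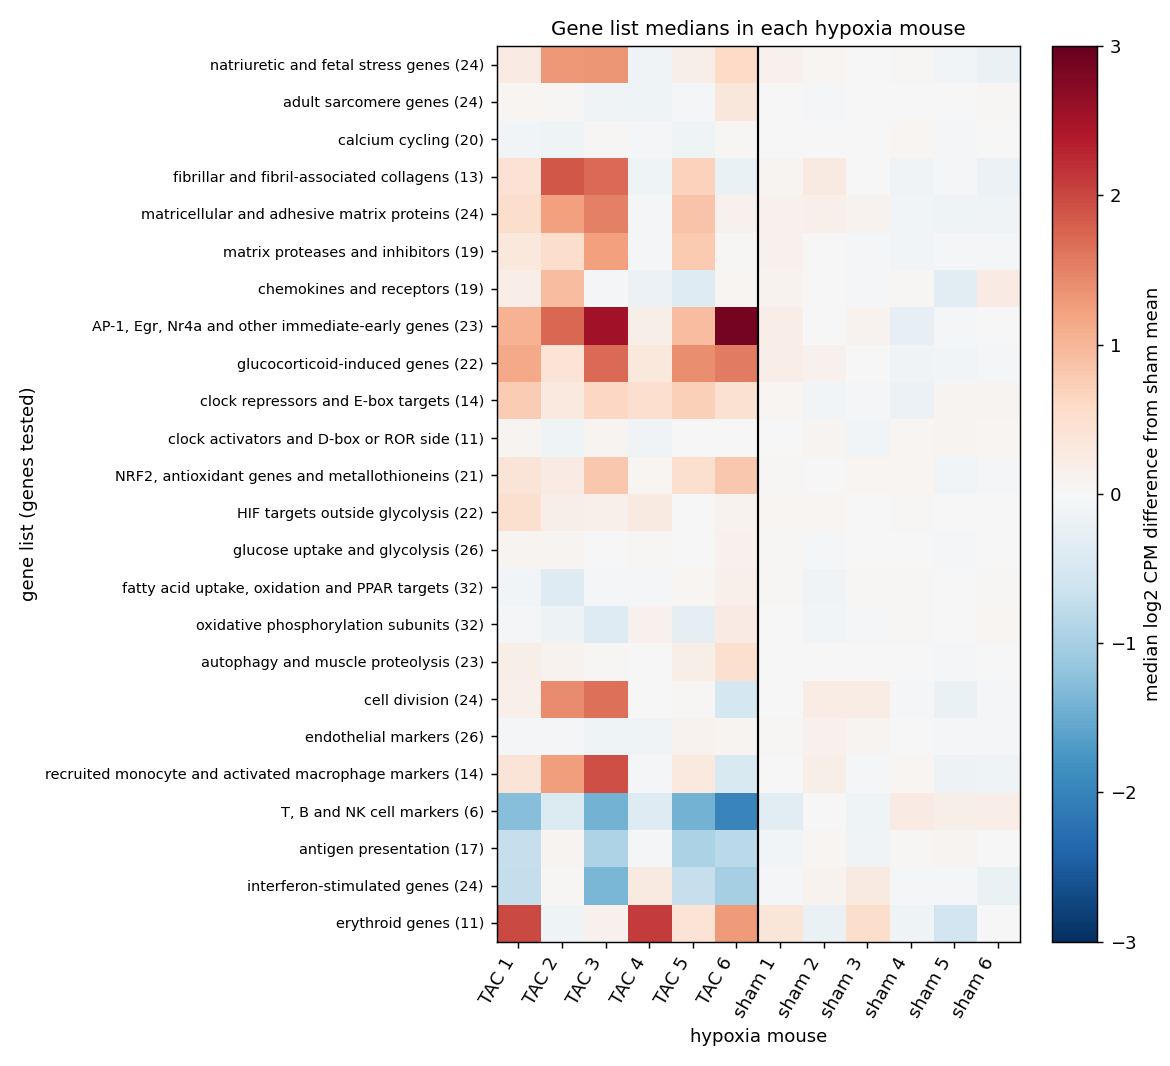
Median log2 CPM difference from the mean of the sham mice (colour) over the tested members of 24 gene lists (rows) in each of the 12 hypoxia mice (columns; 6 TAC left, 6 sham right). Collagens are highest in TAC mice 2 and 3, immediate-early genes in TAC mice 6 and 3, and erythroid genes in TAC mice 4 and 1.

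Among genes of the stressed and fetal myocyte, 7 of 24 tested members rose and none fell (median log2 change 0.81, against 0.012 over all genes; 4 to 13 higher and 0 to 1 lower without 1 library). Nppa, which encodes atrial natriuretic peptide, was at 999, 1795, 2578, 309, 707 and 556 CPM in TAC mice 1 to 6, against 370.3, 410.4, 508, 216, 239 and 264 CPM in sham mice 1 to 6. All TAC mice but mouse 4 lay above every sham mouse (log2 change 1.79 ± 0.44, adjusted p = 0.0224). Fhl1, a LIM protein of the sarcomere that takes part in stretch sensing, was at 148 to 1845 CPM (median 649) in TAC mice and at 104 to 153 CPM (median 135) in sham mice (log2 change 2.58 ± 0.48, adjusted p = 0.00934), again with TAC mouse 4 inside the sham range. The embryonic light chain Myl4 was at 6.92 to 11.1 CPM (median 8.7) in TAC mice, against 4.8 to 6.19 CPM (median 5.7) in sham mice, and the neuronal ubiquitin hydrolase gene Uchl1 was at 6.74 to 25.8 CPM (median 10.3), against 3.75 to 5.82 CPM (median 4.66). For both genes the groups did not overlap (log2 change 0.68 ± 0.14, adjusted p = 0.0101 for Myl4, and log2 change 1.4 ± 0.30, adjusted p = 0.0124 for Uchl1). The chaperone gene Hspb7 (log2 change 0.93 ± 0.20) and the actin regulator Enah (0.82 ± 0.21) rose as well. Nppa and Enah lost their calls without 1 library or another.

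Several classical markers of pressure overload did not pass the test. Nppb, which encodes B-type natriuretic peptide, was at 123, 594, 462, 58.5, 19.6 and 145 CPM in TAC mice 1 to 6, against 158, 142, 156, 103, 96 and 111 CPM in sham mice 1 to 6 (log2 change 0.87 ± 0.62, adjusted p = 0.34). Only TAC mice 2 and 3 lay above every sham mouse, and TAC mice 4 and 5 lay below all of them. Rcan1, a calcineurin target, was at 66.4, 538, 237, 64, 33.7 and 703 CPM in TAC mice 1 to 6, against 68.9 to 144 CPM (median 102) in sham mice (log2 change 1.38 ± 0.64, adjusted p = 0.149), so mice 2, 3 and 6 were above all sham mice and the other TAC mice were below all of them. The fetal myosin Myh7 had a log2 change of 0.88 ± 0.30 (adjusted p = 0.0618), the adult myosin Myh6 one of -0.31 ± 0.12 (adjusted p = 0.0784), Acta1 one of 0.67 ± 0.35 (adjusted p = 0.196) and Ankrd1 one of 1.09 ± 0.43 (adjusted p = 0.094).

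Titin and its cap moved in opposite directions. Of 24 sarcomere genes tested 2 rose and 1 fell, 12.5%, which is near the 14.6% of all genes (median log2 change 0.0073; 1 to 7 higher and 1 to 2 lower without 1 library, the most without TAC mouse 4). The one that fell was Ttn, the giant spring titin, at 4940.3 to 6777 CPM (median 5804) in TAC mice, against 7661 to 9677 CPM (median 8941) in sham mice, with no overlap (log2 change -0.60 ± 0.10, adjusted p = 0.00639). Tcap, which caps titin at the Z-disc, went the other way. It was at 2415, 2102, 2978, 2400.2, 2805 and 5885 CPM in TAC mice 1 to 6, against 1179.9, 1009.5, 1139.8, 1213, 1839 and 1556 CPM in sham mice 1 to 6 (log2 change 1.23 ± 0.24, adjusted p = 0.0101). Every TAC mouse, mouse 4 included, stood above every sham mouse. Tnnc1, cardiac troponin C, rose by 0.37 ± 0.10 on the log2 scale. Tnnc1 lost its call without 1 library or another.

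Some calcium handling and electrical genes fell. Of 20 calcium cycling genes none rose and 4 fell, with a median log2 change of 0.03 (0 to 2 higher and 2 to 5 lower without 1 library). They were the calcium channel subunit Cacna2d1 (-0.40 ± 0.09), the IP3 receptor Itpr1 (-0.43 ± 0.10), the histidine-rich calcium-binding protein Hrc (-0.59 ± 0.16) and the reticulum pump Atp2a2 (-0.55 ± 0.16, adjusted p = 0.0348). Atp2a2 was at 1601 to 3930.4 CPM (median 2633) in TAC mice and at 3510.4 to 4179 CPM (median 3920.5) in sham mice, with TAC mouse 4 inside the sham range and the other 5 TAC mice below it. Among 24 ion channel and gap junction genes 2 rose, among them the potassium channel Kcnq1 (0.36 ± 0.10), and 4 fell, among them Abcc9 (-0.57 ± 0.13), Kcnv2 (-1.12 ± 0.33) and the sodium channel subunit Scn4b (-0.76 ± 0.24). Their median was -0.12 (0 to 3 higher and 1 to 5 lower without 1 library). The called shares were 20% of calcium cycling genes and 25% of these channel genes, against 14.6% of all genes. Of 21 genes of adrenergic and cAMP signalling 2 rose and 5 fell (median -0.07; 0 to 3 higher and 2 to 5 lower without 1 library). Akap5, which anchors protein kinase A near the membrane, was at 1.24, 3.92, 0.456, 1.87, 0.333 and 0.169 CPM in TAC mice 1 to 6, against 5.91, 6.69, 5.59, 8.02, 7.58 and 9.25 CPM in sham mice 1 to 6, and every TAC mouse lay below every sham mouse (log2 change -2.47 ± 0.49, adjusted p = 0.0109). Akap6 (-0.51 ± 0.13), Pde4a (-0.54 ± 0.15) and Prkar2a (-0.29 ± 0.09) fell less, and the receptor kinase Grk5 (0.54 ± 0.16) and the phosphodiesterase Pde4b (0.47 ± 0.15) rose. Hrc, Atp2a2, Kcnq1, Kcnv2, Scn4b, Pde4a, Prkar2a, Grk5 and Pde4b lost their calls without 1 library or another.

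Collagen and other matrix genes rose in part, and unevenly between mice. In bulk tissue a change in RNA per cell and a change in the number of cells of a type cannot be told apart, and this holds for every list below. Of 13 fibrillar and fibril-associated collagens 5 rose (median 1.07; 0 to 7 higher without 1 library), among them Col1a1, Col5a2, Col8a1, Col12a1 and Col16a1. Col1a1, the main chain of type I collagen, was at 289.5, 1035, 697, 142, 298 and 172 CPM in TAC mice 1 to 6, against 177, 191, 169.5, 139, 151 and 131 CPM in sham mice 1 to 6 (log2 change 1.46 ± 0.42, adjusted p = 0.0372). TAC mice 4 and 6 lay inside the sham range and mice 1, 2, 3 and 5 above it. Col3a1 did not pass (log2 change 0.88 ± 0.41, adjusted p = 0.153), with TAC mice 1, 2 and 3 above the sham range and TAC mouse 6 below it. Of 20 basement membrane genes 1 rose, Col18a1 (1.01 ± 0.29), and 2 fell, Lama4 (-0.48 ± 0.13) and Col4a4 (-0.69 ± 0.20), with a median of -0.06 (0 to 6 higher and 0 to 4 lower without 1 library). The called share of 15% is near the 14.6% of all genes. Col1a1, Col5a2, Col8a1, Col12a1, Col16a1, Col18a1, Lama4 and Col4a4 lost their calls without 1 library or another.

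Of 24 matricellular and adhesive matrix genes 11 rose and none fell (median 0.99; 8 to 15 higher and 0 to 1 lower without 1 library). Spp1, or osteopontin, a product of activated macrophages and fibroblasts, was at 18.2, 52.7, 263, 1.03, 12 and 2.71 CPM in TAC mice 1 to 6, against 1.29, 0.271, 0.578, 0.541, 0.697 and 0.611 CPM in sham mice 1 to 6. It was the largest rise named here (log2 change 6.44 ± 1.35, adjusted p = 0.0129), and TAC mouse 3 had more than 100 times the level of TAC mouse 4, which lay inside the sham range. Tnc, or tenascin C, was at 0.561 to 50.2 CPM (median 11.7) in TAC mice and at 1.31 to 2.08 CPM (median 1.46) in sham mice (log2 change 3.55 ± 0.76, adjusted p = 0.0133), and TAC mouse 4 lay below every sham mouse. Thbs1 (2.93 ± 0.58), the TGF-beta target Ccn2 (2.4 ± 0.49), Fbln2 (1.19 ± 0.24) and elastin, Eln (1.04 ± 0.25), rose as well, as did Postn, periostin (log2 change 1.68 ± 0.47, adjusted p = 0.0333). Postn lost its call without 1 library or another.

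Lox, the oxidase that cross-links collagen and elastin, separated the groups. It was at 34.9, 93.6, 349, 7.48, 58.9 and 45.6 CPM in TAC mice 1 to 6, against 5.08, 5.24, 6.46, 5.59, 4.1 and 5.94 CPM in sham mice 1 to 6 (log2 change 4.19 ± 0.75, adjusted p = 0.00863). Even TAC mouse 4 stood above every sham mouse, if by little. In its list of cross-linking and folding genes 4 of 16 rose (median 0.35; 1 to 5 higher and 0 to 1 lower without 1 library), with Fkbp10 (1.04 ± 0.27), Loxl1 (1.06 ± 0.31) and the transglutaminase Tgm2 (0.86 ± 0.24). That is 25% called, against 14.6% of all genes. Of 19 proteases and inhibitors 7 rose and 1 fell (median 0.67; 3 to 11 higher and 1 to 2 lower without 1 library). The inhibitor Timp1 was at 3.18 to 94 CPM (median 13.7) in TAC mice, against 1.71 to 4.25 CPM (median 1.91) in sham mice (log2 change 4.02 ± 0.79, adjusted p = 0.0109). The stromelysin Mmp3 (log2 change 2.18 ± 0.38, adjusted p = 0.00808) and the inhibitor Timp3 (log2 change 0.91 ± 0.17, adjusted p = 0.00835) had groups that did not overlap. Adam19, a membrane protease of the developing heart, was the member that fell, at 37.2, 44.6, 41.4, 23.9, 33.7 and 15.2 CPM in TAC mice 1 to 6, against 60.2, 63.6, 68, 67.6, 69.2 and 72.4 CPM in sham mice 1 to 6 (log2 change -1.03 ± 0.20, adjusted p = 0.00982), with no overlap and with TAC mice 4 and 6 lowest. The collagenase gene Mmp13, which is not on the list, fell as well and averaged 0.445 ± 0.427 CPM in TAC mice and 1.6 ± 0.388 CPM in sham mice (SD, n = 6 each; log2 change -1.88 ± 0.46, adjusted p = 0.0197). At such low levels a gene can pass the filter, which asks for a minimum level in 6 libraries, through the sham mice alone. Fkbp10, Loxl1 and Tgm2 lost their calls without 1 library or another.

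Hyaluronan genes rose in 5 of 8 cases (median 0.71; 4 to 6 higher and 0 to 1 lower without 1 library). In 3 of them every TAC mouse lay above every sham mouse, which held for 2.49% of all genes tested. The synthase Has1 was at 1.22 to 11.7 CPM (median 3.86) in TAC mice (log2 change 3.79 ± 0.62, adjusted p = 0.00706) and at most at 0.786 CPM in sham mice. At such sham levels Has1 could pass the filter, which asks for a minimum level in 6 libraries, only through all 6 TAC mice. Its lack of overlap was thus favoured by the filter. The cell-surface hyaluronidase Cemip2 (0.66 ± 0.12) and the lysosomal Hyal2 (0.53 ± 0.13) rose as well. In the plasminogen and coagulation list 4 of 12 rose (median 0.48; 3 to 6 higher and 0 to 2 lower without 1 library), among them the urokinase receptor Plaur (2.26 ± 0.50), and Anxa2 (1.21 ± 0.28) with its partner S100a10 (0.77 ± 0.23). Among 21 integrin and focal adhesion genes 8 rose and 2 fell (median 0.34; 3 to 10 higher and 2 to 3 lower without 1 library). The fibronectin receptor Itga5 (1.79 ± 0.47), Itgb3 (2.33 ± 0.48), Itga2b (1.47 ± 0.26) and Zyx (0.67 ± 0.16) rose, while the collagen receptor Itga1 (-0.57 ± 0.13) and the laminin receptor Itga6 (-0.68 ± 0.16) fell. S100a10 and Itga5 lost their calls without 1 library or another.

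**Figure D3:**
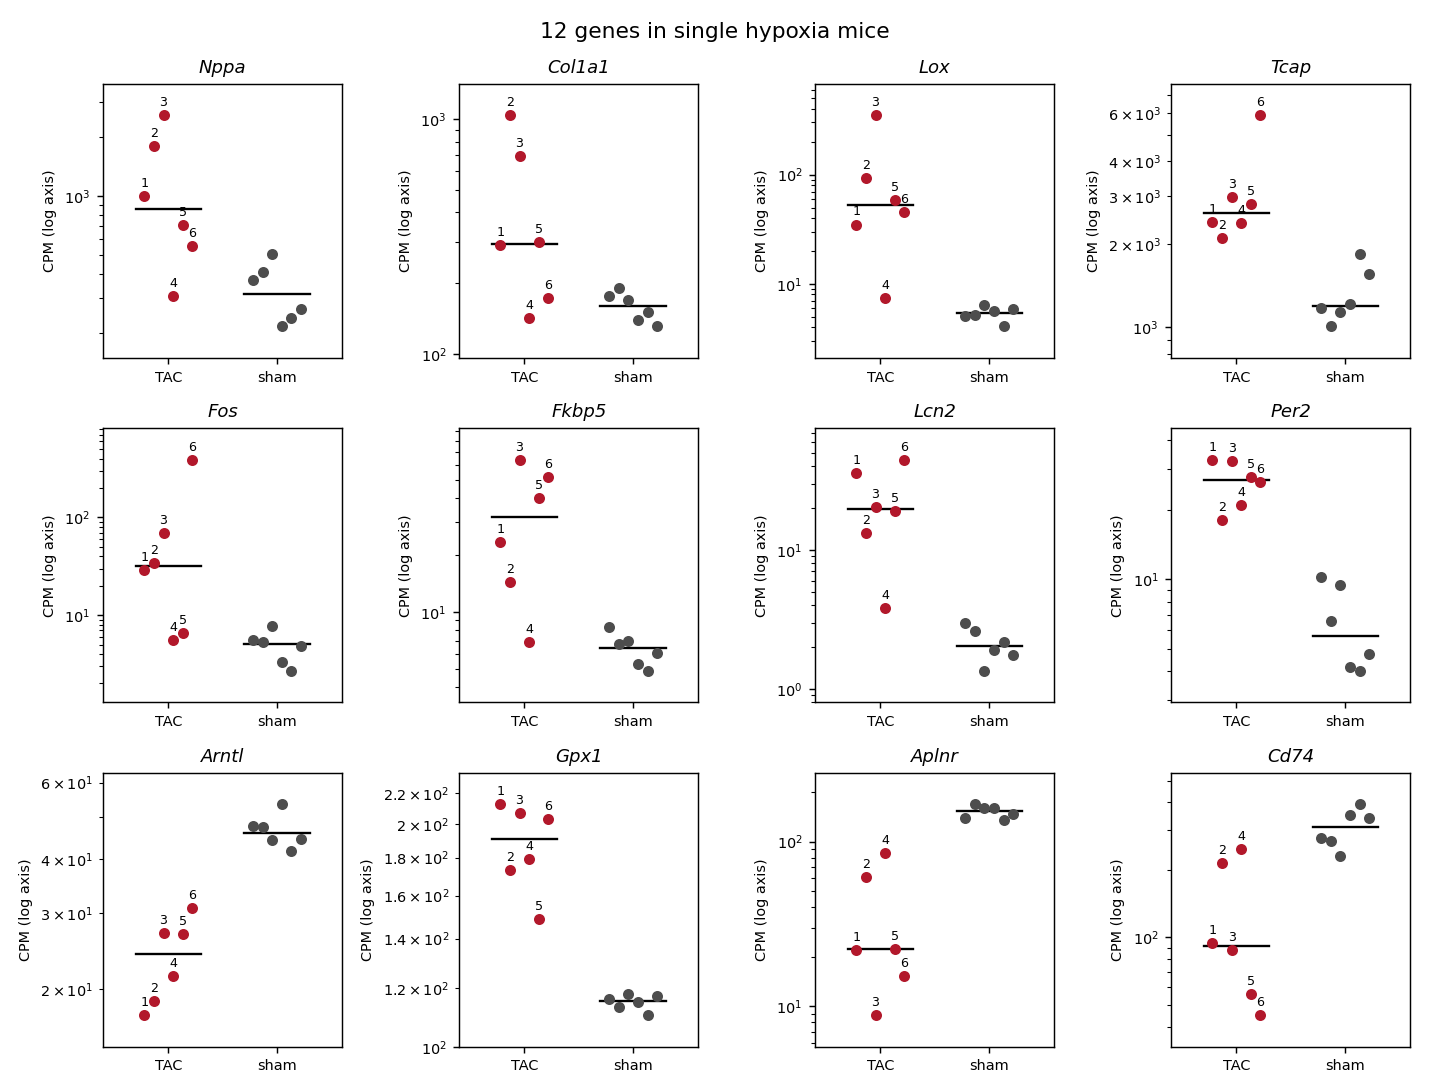
CPM of 12 genes in single mice (log axis; hypoxia TAC left, hypoxia sham right; numbers mark the TAC mice; bars are medians). TAC mouse 4 sits at sham level for Nppa, Col1a1 and Fkbp5 but apart from the sham mice for Per2, Arntl, Tcap and Aplnr.

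Some genes of growth factor and cytokine signalling rose, among them ligands, receptors and feedback inhibitors. The called shares were 28.6% of TGF-beta, activin and BMP genes, 30.8% of IL-6 and gp130 genes and 20% of the EGF family, against 14.6% of all genes. They were 0% of the IL-1 list and 10% of leukocyte adhesion molecules. Of 21 TGF-beta, activin and BMP genes 6 rose and none fell (median 0.46; 3 to 9 higher and 0 to 1 lower without 1 library). The activin subunit Inhba was at 2.25 to 12.8 CPM (median 3.25) in TAC mice and at 1.57 to 2.17 CPM (median 1.86) in sham mice, with no overlap (log2 change 1.63 ± 0.44, adjusted p = 0.0277). The ligand Tgfb3 (0.40 ± 0.11), the receptor Tgfbr2 (0.61 ± 0.17), the inhibitors Smad7 (0.80 ± 0.16) and Fstl3 (1.8 ± 0.43) and the target Id1 (0.56 ± 0.13) rose too. In the EGF family 2 of 10 rose (median -0.03; 1 to 2 higher without 1 library), the ligand Hbegf (2.0 ± 0.55) and the feedback inhibitor Errfi1 (1.89 ± 0.40). Of 13 genes of IL-6 and gp130 signalling 4 rose (median 0.30; 2 to 7 higher without 1 library), the transducer Stat3 (0.69 ± 0.14), the receptors Osmr (0.80 ± 0.19) and Il6ra (0.70 ± 0.22) and the inhibitor Socs3 (2.16 ± 0.55). No member of the IL-1 list was called by edgeR among 8 tested (2 had an unadjusted p under 0.05, DESeq2 called 1 and limma-voom 0; median 0.21; 0 to 2 higher without 1 library), and of 10 leukocyte adhesion molecules 1, P-selectin or Selp (2.63 ± 0.66), rose (median 0.21; 0 to 3 higher without 1 library). Inhba, Tgfb3, Tgfbr2, Hbegf, Il6ra, Socs3 and Selp lost their calls without 1 library or another.

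Ligands that draw monocytes rose, and most other chemokines did not pass. Of 19 chemokines and receptors 3 rose, 15.8%, which is near the 14.6% called among all genes (median 0.17; 1 to 6 higher and 0 to 2 lower without 1 library). Ccl2 was at 23.8, 61.8, 125, 13.6, 36.6 and 28 CPM in TAC mice 1 to 6, against 11.7, 11.7, 8.67, 8.83, 5.32 and 14.6 CPM in sham mice 1 to 6, with TAC mouse 4 inside the sham range and the other 5 TAC mice above it (log2 change 2.25 ± 0.47, adjusted p = 0.0126). Ccl7 (1.86 ± 0.46) and Ccl6 (1.53 ± 0.46) rose as well, and Ccr2, the monocyte receptor for Ccl2 and Ccl7, did not pass (log2 change 0.86 ± 0.56, adjusted p = 0.3). In the angiotensin and endothelin systems 4 of 12 rose and none fell (median 0.25; 2 to 4 higher without 1 library). Among them were angiotensinogen, Agt (log2 change 1.61 ± 0.31, adjusted p = 0.0101), the angiotensin-converting enzyme Ace (0.79 ± 0.17) and the endothelin receptor Ednrb (0.45 ± 0.13). Ccl7, Ccl6 and Ednrb lost their calls without 1 library or another.

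Immediate-early genes, which are switched on within minutes of a stimulus, rose in 19 of 23 cases and none fell (median 1.76; 13 to 22 higher without 1 library). Atf3, a stress-induced repressor, was at 45.1, 47.7, 108, 7.86, 32.2 and 1178 CPM in TAC mice 1 to 6, against 9.33, 6.51, 7.81, 3.61, 3.75 and 5.41 CPM in sham mice 1 to 6 (log2 change 5.29 ± 1.15, adjusted p = 0.0146). TAC mouse 6 was more than 10 times above the next mouse and TAC mouse 4 was in the sham range. Fos (log2 change 4.17 ± 0.98, adjusted p = 0.0192) and Egr1 (log2 change 2.94 ± 0.72, adjusted p = 0.022) had the same top mouse, with 5.52 to 389 CPM (median 31.8) and 22 to 591 CPM (median 96.1) in TAC mice, against 2.7 to 7.81 CPM (median 5.07) and 13.9 to 30.1 CPM (median 24.3) in sham mice. Junb was at 68.5 to 302 CPM (median 137) in TAC mice and at 19.7 to 56.7 CPM (median 38.4) in sham mice, and Maff at 9.17 to 30.0 CPM (median 17.6) and 3.92 to 8.13 CPM (median 5.74). Both kept the groups apart (log2 change 2.12 ± 0.36, adjusted p = 0.00808 for Junb, and log2 change 1.7 ± 0.28, adjusted p = 0.00688 for Maff), as did Fosl1 (3.61 ± 0.74), Ier2 (1.92 ± 0.37) and Nr4a2 (1.76 ± 0.35). The orphan receptor Nr4a1 rose by 3.18 ± 0.56, Fosl2 by 1.2 ± 0.23 and Myc by 2.15 ± 0.58 on the log2 scale. Egr1 and Myc lost their calls without 1 library or another.

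RefSeq promoters (build GRCm38.p6, 250 bases before to 50 after the start site) were searched for the cAMP response element TGACGTCA on both strands. It was in the promoters of 3 of the 14 immediate-early genes that rose and have an entry, Maff, Btg2 and Dusp1. That is 21.4% of those that rose, against 16.7% (3 of 18) of all tested members of this list with an entry. In the same window it was in 3.31% of 11112 tested genes with an entry and in 2.03% of all 27025 genes in the table. The AP-1 site TGANTCA was in 0 of the 14 and in 6.48% of tested genes. These 3 promoters are shown because their genes rose and hold the element, which stands in capitals. They lie at chr15:79347270-79347569, plus strand (Maff), chr1:134079106-134079405, minus strand (Btg2) and chr17:26508423-26508722, minus strand (Dusp1). A match of letters says nothing of binding in these hearts. Dusp1 lost its call without 1 library or another.
Maff: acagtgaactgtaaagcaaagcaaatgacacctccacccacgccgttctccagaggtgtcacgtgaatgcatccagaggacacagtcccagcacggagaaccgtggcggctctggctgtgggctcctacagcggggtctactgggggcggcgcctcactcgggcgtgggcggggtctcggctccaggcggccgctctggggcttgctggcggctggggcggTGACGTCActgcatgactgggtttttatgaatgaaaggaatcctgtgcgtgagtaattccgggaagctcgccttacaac
Btg2: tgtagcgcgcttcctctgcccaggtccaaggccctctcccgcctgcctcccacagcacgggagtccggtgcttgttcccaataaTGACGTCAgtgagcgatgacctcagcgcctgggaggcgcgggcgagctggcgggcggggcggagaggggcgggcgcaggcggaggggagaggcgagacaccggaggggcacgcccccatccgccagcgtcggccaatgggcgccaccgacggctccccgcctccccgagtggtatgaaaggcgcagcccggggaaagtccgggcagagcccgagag
Dusp1: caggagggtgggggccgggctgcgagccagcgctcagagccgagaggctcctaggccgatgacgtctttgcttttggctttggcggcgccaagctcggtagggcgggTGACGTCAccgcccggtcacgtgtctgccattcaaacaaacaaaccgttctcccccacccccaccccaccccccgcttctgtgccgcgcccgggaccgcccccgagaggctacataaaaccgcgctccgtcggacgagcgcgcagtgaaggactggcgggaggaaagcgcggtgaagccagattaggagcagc

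Genes induced by glucocorticoids, the adrenal stress hormones, formed a further block. Of 22 tested 15 rose and 1 fell (median 1.23; 12 to 17 higher and 0 to 1 lower without 1 library). For 8 of them every TAC mouse lay above every sham mouse, which held for 2.49% of all genes tested. Lcn2, an iron-binding acute-phase protein, was at 36, 13.3, 20.3, 3.84, 18.9 and 44.6 CPM in TAC mice 1 to 6, against 2.96, 2.62, 1.35, 1.89, 2.18 and 1.75 CPM in sham mice 1 to 6 (log2 change 3.42 ± 0.48, adjusted p = 0.0037). TAC mice 1 and 6 were highest, and mouse 4 was lowest but still above the sham mice. Fkbp5, a co-chaperone of the glucocorticoid receptor, was at 23.3, 14.3, 63.7, 6.92, 39.8 and 51.8 CPM in TAC mice 1 to 6, against 8.31, 6.78, 7.03, 5.32, 4.88 and 6.02 CPM in sham mice 1 to 6 (log2 change 2.39 ± 0.44, adjusted p = 0.00924), with TAC mouse 4 inside the sham range. Tsc22d3, or GILZ, was at 227 to 491 CPM (median 317) in TAC mice and at 159 to 225 CPM (median 184) in sham mice, with no overlap (log2 change 0.85 ± 0.18, adjusted p = 0.0115). Sgk1 (1.18 ± 0.25), Errfi1, Ddit4 (1.61 ± 0.37) and Cdkn1a (1.63 ± 0.43) also rose. For Ddit4 sham mice 3 and 4 were far below the other sham mice (6.75 and 6.94 CPM, against at least 18.7 CPM). The gene that fell was the receptor itself, Nr3c1 (log2 change -0.53 ± 0.16, adjusted p = 0.0456). The glucocorticoid receptor motif AGAACA was in 2 of 14 promoters of the genes that rose and in 15.6% of those of tested genes. Cdkn1a and Nr3c1 lost their calls without 1 library or another.

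Some genes of the circadian clock separated all 6 TAC mice from all 6 sham mice, and others did not. In this clock Arntl (also called Bmal1) pairs with Clock or Npas2 to switch on the Per, Cry and Nr1d genes through E-boxes, and the Per and Cry proteins then repress it. Of 14 repressors and E-box targets 8 rose and none fell (median 0.55; 4 to 9 higher without 1 library). Per2 was at 33, 18.1, 32.5, 21, 27.7 and 26.3 CPM in TAC mice 1 to 6, against 10.3, 6.6, 9.44, 4.15, 4.01 and 4.71 CPM in sham mice 1 to 6 (log2 change 2.02 ± 0.25, adjusted p = 0.00178). Ciart, a repressor of Arntl and Clock, was at 14.8, 8.72, 12.5, 10.2, 10.2 and 11.7 CPM in TAC mice 1 to 6, against 5.63, 4.88, 3.28, 5.95, 4.01 and 3.75 CPM in sham mice 1 to 6 (log2 change 1.31 ± 0.17, adjusted p = 0.00231). In neither gene did the groups overlap, and TAC mouse 4 lay within the other TAC mice. Per1, which is also a glucocorticoid target, was at 21.8 to 92.4 CPM (median 64) in TAC mice and at 10.7 to 21.2 CPM (median 16.7) in sham mice (log2 change 1.87 ± 0.32, adjusted p = 0.00808), and the deubiquitinase gene Usp2 rose by 0.64 ± 0.13 without overlap. Bhlhe40 (0.86 ± 0.21), Per3 (0.65 ± 0.18), Cry2 (0.60 ± 0.16) and Nr1d2 (0.51 ± 0.16) rose with overlap. Bhlhe40, Per3, Cry2 and Nr1d2 lost their calls without 1 library or another.

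The activating side moved the opposite way at 2 genes. Arntl was at 17.4, 18.7, 27, 21.4, 26.7 and 30.8 CPM in TAC mice 1 to 6, against 47.6, 47.4, 44.1, 53.5, 41.7 and 44.5 CPM in sham mice 1 to 6, and all TAC mice were below all sham mice (log2 change -0.97 ± 0.13, adjusted p = 0.00257). Npas2 was at 0.916 to 2.74 CPM (median 2.0) in TAC mice and at 3.61 to 6.37 CPM (median 4.79) in sham mice, also without overlap (log2 change -1.29 ± 0.24, adjusted p = 0.00855). Of the 11 genes on this side 1, the kinase Csnk1d (0.55 ± 0.12), rose, and the median was -0.01 (1 to 2 higher and 2 lower without 1 library). Clock itself had a log2 change of -0.02 ± 0.11. Not every E-box gene moved, since Nr1d1 (log2 change -0.21 ± 0.24, adjusted p = 0.578) and Dbp (log2 change 0.50 ± 0.37, adjusted p = 0.362) did not pass. Dbp was highest in TAC mice 2 and 4, at 10.5 and 13.3 CPM, whereas the other 4 TAC mice were at 2.89 to 3.64 CPM, below every sham mouse. The part of the hour of harvest, which the labels do not give, was not tested.

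The E-box CACGTG was in the promoters of 2 of the 6 rising clock genes that have an entry in the RefSeq table, Per1 and Ciart. It was in 5 of the 12 tested members of this list with an entry, in 11.3% of tested genes and in 8.09% of all genes. The members that rose thus held it no more often than the list, which was drawn up in part as E-box targets. The promoters of Per1 and Ciart, which separated the groups, are shown with each E-box in capitals. Ciart (GRCm38.p6, chr3:95882179-95882478, minus strand) holds 3 of them and Per1 (chr11:69098699-69098998, plus strand) holds 1 in this window. The D-box TTATGTAA was in 1 of the 6 and in 0.711% of tested genes.
Ciart: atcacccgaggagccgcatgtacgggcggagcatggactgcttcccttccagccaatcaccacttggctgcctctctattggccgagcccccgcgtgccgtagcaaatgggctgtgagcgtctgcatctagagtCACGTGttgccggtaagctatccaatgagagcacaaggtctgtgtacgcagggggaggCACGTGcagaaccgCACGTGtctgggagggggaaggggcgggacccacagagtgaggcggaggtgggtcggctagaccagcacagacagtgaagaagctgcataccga
Per1: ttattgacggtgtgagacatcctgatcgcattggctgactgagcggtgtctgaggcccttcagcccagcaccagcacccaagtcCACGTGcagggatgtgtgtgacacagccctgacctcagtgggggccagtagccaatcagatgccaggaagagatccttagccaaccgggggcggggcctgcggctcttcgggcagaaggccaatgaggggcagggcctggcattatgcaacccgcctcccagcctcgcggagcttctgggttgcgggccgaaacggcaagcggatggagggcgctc

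Several antioxidant genes rose. Of 21 NRF2 targets, antioxidant genes and metallothioneins 8 rose and none fell (median 0.56; 7 to 11 higher without 1 library). For 6 of them every TAC mouse lay above every sham mouse, which held for 2.49% of all genes tested. Gpx1, glutathione peroxidase, was at 212, 173, 207, 179, 149 and 203 CPM in TAC mice 1 to 6, against 116, 113, 118, 115, 110.3 and 117 CPM in sham mice 1 to 6 (log2 change 0.70 ± 0.09, adjusted p = 0.00178). The secreted form Gpx3 was at 797 to 1587 CPM (median 1159) in TAC mice and at 509 to 649.7 CPM (median 615) in sham mice (log2 change 0.96 ± 0.14, adjusted p = 0.0037). TAC mouse 4 was above the sham mice for both. Hmox1, heme oxygenase, which is also a HIF target, was at 9.92 to 165 CPM (median 43.8) in TAC mice and at 4.79 to 9.79 CPM (median 6.62) in sham mice (log2 change 3.21 ± 0.55, adjusted p = 0.00808). The metallothioneins Mt1 (1.59 ± 0.31) and Mt2 (2.39 ± 0.37) and the glutathione synthesis gene Gclm (1.27 ± 0.23) rose likewise. The antioxidant response element TGACNNNGC was in the promoters of 2 of the 6 rising members of this list with an entry. It was in 8 of the 17 tested members with an entry, so the members that rose held it no more often than the list. Among all genes it was in 17% of promoters of tested genes, in 21.1% of those of genes that rose and in 11.3% of those of genes that fell.

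Of 15 genes of iron handling 5 rose and none fell (median 0.14; 4 to 5 higher and 0 to 1 lower without 1 library), with ferritin light chain, Ftl1, at 639.9 to 1100.3 CPM (median 830.2) in TAC mice and 472 to 589.9 CPM (median 519.6) in sham mice (log2 change 0.72 ± 0.12, adjusted p = 0.00677). Other stress programs were mixed. In the amino acid and integrated stress response 3 of 19 rose and 1 fell (median 0.50; 1 to 5 higher and 0 to 1 lower without 1 library), with Slc3a2 (0.79 ± 0.16), Ppp1r15a (1.25 ± 0.31) and Psat1 (1.43 ± 0.42) higher and Aldh1l2 (-0.55 ± 0.17) lower. Among endoplasmic reticulum chaperones 2 of 20 rose, Dnajc3 (0.37 ± 0.10) and Herpud1 (0.97 ± 0.29), and 1, calnexin or Canx (-0.27 ± 0.08), fell (median 0.05; 0 to 2 higher and 0 to 2 lower without 1 library). With 15% called, this list too is near the 14.6% of all genes. The cytosolic heat shock proteins had 2 higher and 2 lower of 18 (median -0.02; 1 to 4 higher and 0 to 4 lower without 1 library). Hspa1a, the inducible Hsp70, was at 53.2, 259, 11.4, 149, 7.66 and 201 CPM in TAC mice 1 to 6, against 25.4, 10.8, 16.8, 5.5, 3.66 and 3.06 CPM in sham mice 1 to 6 (log2 change 3.39 ± 0.85, adjusted p = 0.0245). TAC mice 1, 2, 4 and 6 were above every sham mouse, and TAC mice 3 and 5 were in the sham range. Of 21 genes of Myc and ribosome biogenesis 1, Myc itself, rose (median 0.06; 0 to 2 higher and 0 to 1 lower without 1 library), and in the polyamine, arginine and creatine list 3 of 15 rose and 2 fell (median -0.03; 0 to 4 higher and 0 to 3 lower without 1 library), among them spermidine synthase, Srm, higher (1.65 ± 0.44) and Nos2 lower (-1.11 ± 0.29). Ppp1r15a, Psat1, Aldh1l2, Dnajc3, Herpud1, Canx, Hspa1a, Srm and Nos2 lost their calls without 1 library or another.

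Targets of HIF outside glycolysis rose in 6 of 22 cases (median 0.18; 4 to 8 higher and 0 to 2 lower without 1 library), on top of the hypoxia that both groups shared. Besides Hmox1 and Ddit4 they were the lactate exporter Slc16a3 (log2 change 2.16 ± 0.42, adjusted p = 0.0101), the mitophagy receptor Bnip3 (log2 change 0.97 ± 0.22, adjusted p = 0.0155), Bhlhe40 and Kdm4b (0.42 ± 0.12). Vegfa, the best known HIF target among vessel growth factors, did not pass (log2 change -0.37 ± 0.19, adjusted p = 0.182). In glucose uptake and glycolysis 3 of 26 rose and 3 fell (median 0.14; 2 to 5 higher and 0 to 4 lower without 1 library). The called shares were 27.3% of the HIF targets and 23.1% of the glycolysis list, against 14.6% of all genes. The glucose transporter Slc2a1 (0.72 ± 0.16), hexokinase Hk1 (0.57 ± 0.16) and Pfkfb3 (0.78 ± 0.18) were higher, while the muscle forms Pfkm (-0.52 ± 0.16), Pfkfb2 (-0.96 ± 0.25) and the glycogen phosphorylase Pygm (-0.49 ± 0.13) were lower, all 3 without overlap. Kdm4b, Hk1, Pfkm, Pfkfb2 and Pygm lost their calls without 1 library or another.

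Few mitochondrial energy genes were called. Of 32 subunits of oxidative phosphorylation none was called by edgeR in either direction (2 had an unadjusted p under 0.05, DESeq2 called 2 and limma-voom 1; median -0.04; 0 to 1 lower without 1 library), and of 26 genes of the TCA cycle and branched-chain amino acid breakdown 1, Mccc1 (-0.40 ± 0.13), fell (median -0.14; 0 to 4 lower without 1 library). Among 32 genes of fatty acid use none rose and 4 fell, 12.5%, which is near the 14.6% called among all genes (median -0.01; 0 to 4 higher and 2 to 6 lower without 1 library). The 4 higher calls came without TAC mouse 2 or 4. Cpt2, which readies long-chain acyl groups for oxidation inside mitochondria, was at 209.8, 223, 186, 292, 189 and 219.9 CPM in TAC mice 1 to 6, against 363, 337, 380.1, 384, 341 and 365 CPM in sham mice 1 to 6 (log2 change -0.72 ± 0.11, adjusted p = 0.0037). Every TAC mouse was below every sham mouse. The trifunctional protein subunits Hadhb (-0.41 ± 0.09) and Hadha (-0.35 ± 0.09) and the activating enzyme Acsl1 (-0.36 ± 0.09) fell with it. Pdk4 (log2 change -0.42 ± 0.25, adjusted p = 0.251) and the transporter Cd36 (log2 change 0.26 ± 0.12, adjusted p = 0.15) did not pass. Mccc1, Hadha and Acsl1 lost their calls without 1 library or another.

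Degradation genes leaned upward. Of 23 genes of autophagy and muscle proteolysis 8 rose and 1 fell (median 0.23; 3 to 9 higher and 0 to 1 lower without 1 library). Map1lc3a, which coats autophagosomes, was at 802, 755, 904, 790.4, 796 and 924 CPM in TAC mice 1 to 6, against 514, 467, 410.4, 347, 549.8 and 528 CPM in sham mice 1 to 6, with no overlap and a narrow range among TAC mice (log2 change 0.82 ± 0.11, adjusted p = 0.00257). The ubiquitin ligase Fbxo30 (0.56 ± 0.12), Foxo3 (0.65 ± 0.19) and the proteasome subunit Psmd11 (0.35 ± 0.11) rose as well. Of 21 lysosomal genes 4 rose and none fell, 19% against 14.6% called among all genes (median 0.24; 3 to 8 higher without 1 library), with Cd63 (0.78 ± 0.17) and Ctsk (1.21 ± 0.26) apart from the sham mice. Cell division genes were mostly above the sham mean but seldom called, 2 of 24, which is 8.33% against 14.6% of all genes. Rrm2 (0.96 ± 0.28) and Ube2c (1.19 ± 0.33) rose, and the list had a median of 0.67 (0 to 5 higher without 1 library). Over the 24 genes the median per mouse was 0.15, 1.41, 1.66, -0.01, 0.03 and -0.52 in TAC mice 1 to 6, so that TAC mice 2 and 3 carried the difference from sham mice at -0.20 to 0.22. Foxo3, Psmd11, Rrm2 and Ube2c lost their calls without 1 library or another.

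**Figure D4:**
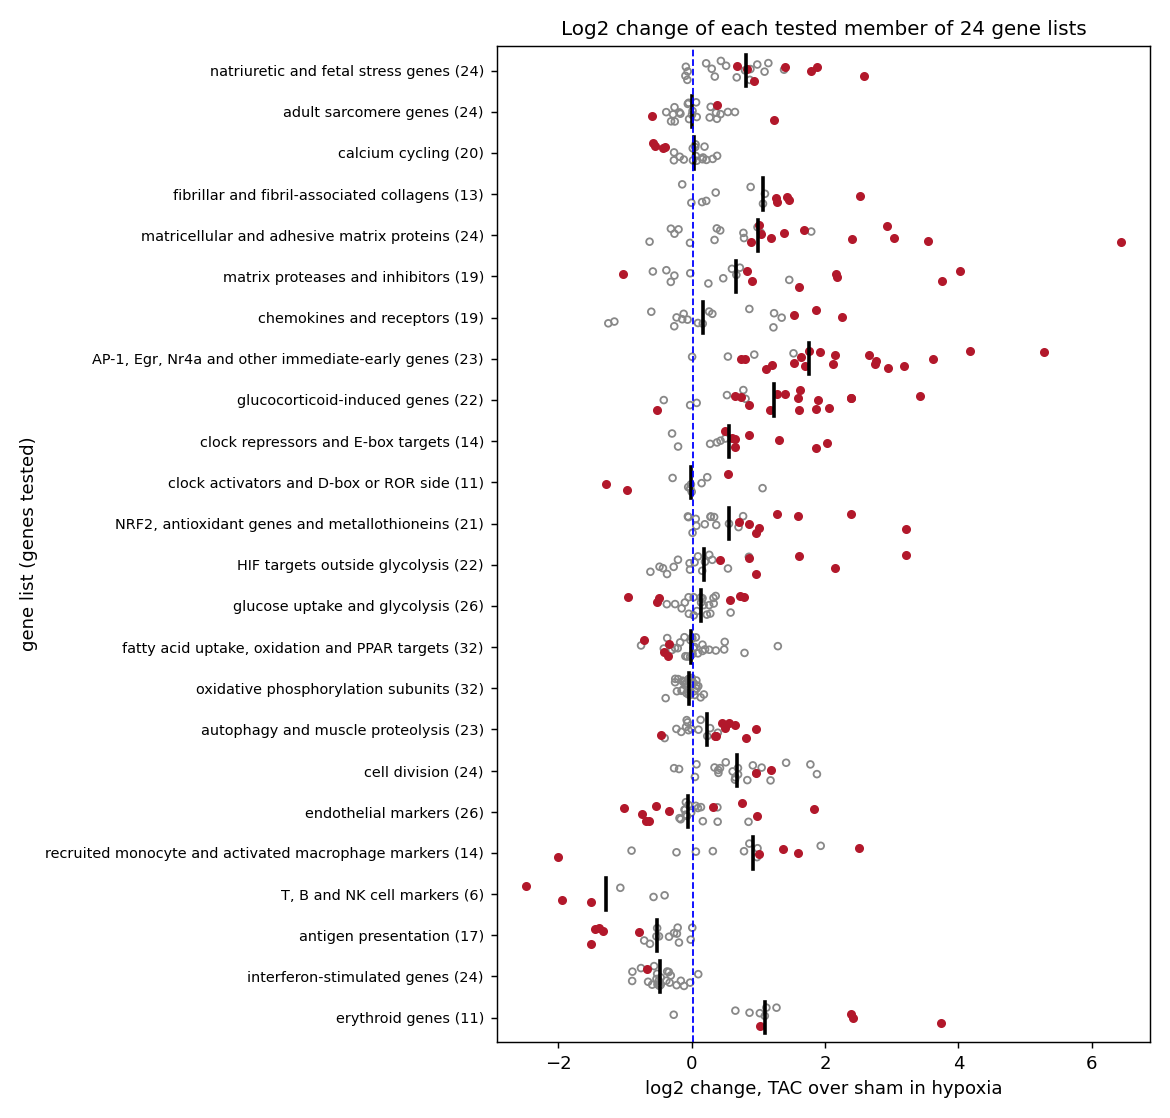
Log2 change of every tested member (points, TAC over sham in hypoxia; filled, adjusted p under 0.05) of 24 gene lists (rows), with the list medians as bars and the median of all genes tested as a dashed line. The medians are 1.76 for immediate-early genes, 1.23 for glucocorticoid-induced genes and -1.29 for lymphocyte markers, of which only 6 of 28 could be tested.

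Markers of resident fibroblasts went both ways. Of 16 tested 2 rose, Mfap5 (1.19 ± 0.28) and Ly6a (0.44 ± 0.11), and 2 fell, Wif1 (-1.94 ± 0.46) and Tcf4 (-0.35 ± 0.09), which is 25% of them, against 14.6% of all genes (1 to 2 higher and 1 to 2 lower without 1 library), with a median of -0.24 and a summed level of 3411 to 5946 CPM in TAC mice and 4209 to 4891 CPM in sham mice. In smooth muscle and pericytes 2 of 16 rose, Cspg4 (0.68 ± 0.17) and Mustn1 (0.52 ± 0.15), and 2 fell, Vtn (log2 change -0.77 ± 0.16, adjusted p = 0.0116) and Abcc9 (median 0.18; 0 to 3 higher and 2 to 3 lower without 1 library). This list too had 25% called, against 14.6% of all genes. Ly6a, Tcf4, Cspg4 and Mustn1 lost their calls without 1 library or another.

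Endothelial genes went both ways, with 4 higher and 6 lower of 26 markers (median -0.06; 2 to 5 higher and 3 to 6 lower without 1 library). Aplnr, the apelin receptor, was at 22.1, 60.9, 8.82, 85.5, 22.3 and 15.2 CPM in TAC mice 1 to 6, against 139, 169, 160.2, 159, 136 and 146 CPM in sham mice 1 to 6, and no TAC mouse reached the lowest sham mouse (log2 change -2.09 ± 0.45, adjusted p = 0.0135). Kdr, the main signalling receptor for VEGF, was at 94.8 to 254 CPM (median 148) in TAC mice and at 281 to 371 CPM (median 336) in sham mice, also apart (log2 change -1.01 ± 0.23, adjusted p = 0.0168). Tie1 (-0.35 ± 0.10), Ets1 (-0.75 ± 0.14), Emcn (-0.69 ± 0.19), Sox18 (-0.64 ± 0.20) and the lymphatic factor Prox1 (-0.54 ± 0.12) fell. Sox17, an arterial transcription factor, was higher, at 30.1 to 86.3 CPM (median 44.3) in TAC mice and 7.48 to 19.1 CPM (median 14.7) in sham mice (log2 change 1.83 ± 0.31, adjusted p = 0.00806), with the lowest sham values in mice 3 and 4. The ligand Pgf (log2 change 1.78 ± 0.36, adjusted p = 0.0114), the VEGF receptor Flt1 (0.32 ± 0.09) and Gpihbp1, which holds lipoprotein lipase on capillaries (0.98 ± 0.21), rose. So did Lyve1, which is on this list and on that of resident-type macrophages. Aplnr and Pgf are not among the 26 markers. Pan-endothelial Cdh5 (log2 change -0.10 ± 0.13, adjusted p = 0.608) and Pecam1 (log2 change 0.39 ± 0.15, adjusted p = 0.0849) did not pass, and the summed marker level was 2934 to 3871 CPM in TAC mice and 3159 to 3609 CPM in sham mice. In the VEGF, apelin and angiopoietin list 2 of 25 rose, Pgf and Flt1, and 4 fell, Kdr, Tie1, Aplnr and the co-receptor Nrp1 (-0.55 ± 0.16), with a median of -0.16 (1 to 3 higher and 2 to 8 lower without 1 library). Tie1, Emcn, Sox18, Flt1, Lyve1 and Nrp1 lost their calls without 1 library or another.

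Macrophage genes rose in part. Of 14 markers of recruited monocytes and activated macrophages that could be tested 4 rose and 1 fell (median 0.92; 3 to 9 higher and 0 to 1 lower without 1 library), with a summed level of 208 to 744 CPM in TAC mice and 216 to 285 CPM in sham mice. Lgals3, galectin-3, was at 27, 40.6, 66.5, 6.55, 32.9 and 11.6 CPM in TAC mice 1 to 6, against 7.2, 8.31, 4.72, 3.97, 4.62 and 3.75 CPM in sham mice 1 to 6 (log2 change 2.51 ± 0.47, adjusted p = 0.00949). TAC mouse 3 was highest and mouse 4 was inside the sham range. Gpnmb (1.6 ± 0.37), Trem2 (1.37 ± 0.42) and Cd14 (1.0 ± 0.28) rose, Retnla fell (-2.01 ± 0.59), and Cd68 did not pass (log2 change 0.98 ± 0.33, adjusted p = 0.0632). Of 18 resident-type markers 2 rose, Lyve1 (0.76 ± 0.20) and the complement subunit C1qc (1.46 ± 0.44), with a median of 0.19 (0 to 6 higher and 0 to 1 lower without 1 library). Of 16 complement genes 2 rose, Masp1 (0.81 ± 0.16) and C1qc, and 1, the protective Cd55 (-0.82 ± 0.18), fell (median 0.35; 1 to 3 higher and 1 to 2 lower without 1 library). The called shares were 11.1% of resident-type markers and 18.8% of complement genes, against 14.6% of all genes. The neutrophil list had 4 testable members of 16, of which S100a8 rose (log2 change 1.97 ± 0.58, adjusted p = 0.0394; median 0.92; 0 to 2 higher without 1 library). Trem2, Cd14, Retnla, Lyve1, C1qc and S100a8 lost their calls without 1 library or another.

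Some genes of lymphocytes and of antigen presentation fell, and none of those tested rose. Of 28 lymphocyte and NK markers 6 could be tested, none of these rose and 3 fell (median -1.29; 2 to 4 lower without 1 library; summed level 3.13 to 13.7 CPM in TAC mice and 18.1 to 27.2 CPM in sham mice). At such low counts a gene can pass the filter, which asks for a minimum level in 6 libraries, through a single group. The median of the 6 therefore does not describe the whole list, whose untested members had log2 changes in both directions without the filter. Klra9, an NK receptor with close relatives in its gene cluster, averaged 0.904 ± 0.841 CPM in TAC mice and 4.95 ± 1.67 CPM in sham mice (SD, n = 6 each; log2 change -2.48 ± 0.56, adjusted p = 0.0155). The T-cell receptor zeta chain Cd247 was at 0.0935 to 0.847 CPM (median 0.697) in TAC mice and 1.39 to 3.32 CPM (median 2.3) in sham mice (log2 change -1.95 ± 0.35, adjusted p = 0.00806), and the antibody heavy chain Ighm (-1.51 ± 0.42) fell as well. Of 17 antigen presentation genes none rose and 5 fell (median -0.52; 0 to 8 lower without 1 library), all 5 on the class II side. Cd74, the class II invariant chain, was at 94.5, 214, 88.3, 247, 56.2 and 45.1 CPM in TAC mice 1 to 6, against 278, 269, 231, 352, 392 and 341 CPM in sham mice 1 to 6 (log2 change -1.32 ± 0.37, adjusted p = 0.0345). TAC mice 5 and 6 were lowest and mouse 4 lay inside the sham range. H2-Eb1 (log2 change -1.52 ± 0.40, adjusted p = 0.0267), H2-Aa (-1.45 ± 0.44), H2-Ab1 (-1.39 ± 0.44) and their activator Ciita (-0.79 ± 0.19) fell with it. Interferon-stimulated genes had 1 of 24 log2 changes above 0 and a median of -0.47, and of these genes 0 rose and 1 fell. Without TAC mouse 4, 13 of them fell, and in the other 11 fits without 1 library 0 to 2 did. Their median per mouse was -0.71, 0.04, -1.37, 0.26, -0.69 and -1.0 in TAC mice 1 to 6, against -0.19 to 0.26 in the sham mice. Ighm, Cd74, H2-Eb1, H2-Aa, H2-Ab1 and Ciita lost their calls without 1 library or another.

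Red cell genes rose in 4 of 11 cases (median 1.1; 1 to 7 higher without 1 library), with large differences between TAC mice. Slc4a1, the anion exchanger of the red cell membrane, was at 66.2, 2.55, 8.59, 26.3, 20.7 and 31.2 CPM in TAC mice 1 to 6, against 2.77, 1.54, 3.85, 1.62, 0.871 and 1.05 CPM in sham mice 1 to 6 (log2 change 3.74 ± 0.66, adjusted p = 0.0083). Trim10 (2.41 ± 0.69), an erythroid gene, was highest in TAC mice 1 and 4. Hba-a1, alpha-globin, was at 1025, 289, 395, 942, 372 and 923 CPM in TAC mice 1 to 6, against 375, 275, 424, 276, 268 and 317 CPM in sham mice 1 to 6 (log2 change 1.03 ± 0.30, adjusted p = 0.0398), and its copy Hba-a2 did not pass (log2 change 1.1 ± 0.40, adjusted p = 0.0779), so reads may be split between both. TAC mice 1, 4 and 6 were high and mice 2, 3 and 5 were near the sham mice. Without TAC mice 1 and 4, which had the largest share of globin counts, 1 of 11 red cell genes was called, in a fit added after the data were seen. The same 2 mice had the highest medians on this list, so that fit is no test of it. Trim10 and Hba-a1 lost their calls without 1 library or another.

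The smaller marker lists held at most 2 called members each. Skeletal muscle markers had 1 of 5 higher (0 to 1 higher and 0 to 1 lower without 1 library), Tnni2 (0.98 ± 0.27), and atrial markers 2 of 6, Nppa and Myl4. Of 2 mesothelial and epicardial markers tested Wt1 rose (log2 change 0.90 ± 0.17, adjusted p = 0.00935), of 6 Schwann cell and neural markers Ncam1 rose (log2 change 1.42 ± 0.34, adjusted p = 0.0188), and of 2 adipocyte markers edgeR called none, whereas 1 had an unadjusted p under 0.05 and DESeq2 and limma-voom each called 1. Medians were 0.36 for skeletal muscle, 0.16 for atrial (1 to 2 higher without 1 library), 0.37 for mesothelial, 0.01 for Schwann cell and 0.24 for adipocyte markers (0 to 1 higher without 1 library). None of the 6 sex-linked genes was called by edgeR (1 had an unadjusted p under 0.05, DESeq2 called 1 and limma-voom 0; median -0.05; 0 to 1 lower without 1 library). Tnni2 lost its call without 1 library or another.

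Beyond these lists, large rises were those of the long noncoding RNA Snhg11 (log2 change 6.37 ± 1.17, adjusted p = 0.00924), the cornified envelope gene Sprr1a (5.38 ± 1.4), the cysteine dioxygenase Cdo1 (4.01 ± 0.75), the adhesion molecule Sdk2 (3.67 ± 0.51) and the proteoglycan Spock2 (3.55 ± 0.75). The protease Adam8 (3.76 ± 0.94), also a large rise, is already counted in the list of proteases and inhibitors. Snhg11 was at 11.4, 1.27, 106, 1.03, 54.3 and 55.9 CPM in TAC mice 1 to 6, against 0.277 to 0.633 CPM (median 0.436) in sham mice, and Spock2 at 28.3, 2.06, 40.7, 1.96, 47.5 and 64.4 CPM, against 2.09 to 3.61 CPM (median 2.44). Both were high in TAC mice 1, 3, 5 and 6. In TAC mice 2 and 4 Snhg11 was just above the sham mice and Spock2 below all of them, whereas Sprr1a, at 1.15, 59.1, 82.6, 0.281, 1.58 and 5.42 CPM in TAC mice 1 to 6, was high in mice 2 and 3. At its sham levels Snhg11, like Has1, could pass the filter only through all 6 TAC mice. Its lack of overlap was thus favoured by the filter. Large falls outside the lists were those of Uts2r, the urotensin receptor (log2 change -2.32 ± 0.45, adjusted p = 0.00973), Plscr5 (-2.19 ± 0.50), Lrrc30 (-2.07 ± 0.49), the transcriptional repressor Prdm1 (-2.03 ± 0.38), Cpn2 (-1.86 ± 0.37), the lipase gene Pnpla3 (-1.71 ± 0.32), the muscle chloride channel Clcn1 and Pla2g2d (-1.68 ± 0.44). For all 8 the groups did not overlap, which held in this direction for 3.41% of all genes tested. Picking the largest falls among called genes favours such a lack of overlap. So does the filter for the lowest of them, since a low gene can pass it through the sham mice alone. Clcn1 was at 5.59, 3.82, 1.44, 6.55, 2.42 and 4.83 CPM in TAC mice 1 to 6, against 13, 10.1, 9.93, 12.8, 18.3 and 14.7 CPM in sham mice 1 to 6 (log2 change -1.69 ± 0.29, adjusted p = 0.00806). Sprr1a, Adam8 and Pla2g2d lost their calls without 1 library or another.

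Of 1047 genes on the lists 914 were tested, and 133 had too few counts in too many libraries, 5 of them none at all. The filter asks for a minimum level in 6 libraries, so that genes detected in few TAC mice drop out. The 4 with the most counts, named after their values were seen, were Arg1, Chil3, Cthrc1 and Ankrd2. Arginase, Arg1, was at 0.799, 3.06, 61.6, 0.372, 0.771 and 0.519 CPM in TAC mice 1 to 6, against 0.0899 to 0.534 CPM in sham mice, so that 1 mouse held nearly all of it. The macrophage gene Chil3 was at 9.58, 4.64, 45.9, 0.465, 1.97 and 1.41 CPM in TAC mice 1 to 6, against 0.0979 to 0.556 CPM in sham mice. Cthrc1, a secreted product of activated fibroblasts, was at 6.12, 27.2, 18.6, 0.279, 4.71 and 1.93 CPM in TAC mice 1 to 6, against 0.391 to 0.741 CPM in sham mice, and the stretch-responsive Ankrd2 was at 1.86, 6.21, 19, 0.744, 4.71 and 1.78 CPM, against 0.0979 to 0.65 CPM. These CPM of untested genes are not scaled by TMM.

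To find where the response in hypoxia differed from that in normoxia, the difference of both log2 changes was tested over all 24 libraries. It was called for 308 of 15027 genes (2.05%), 169 of them with the higher value in hypoxia and 139 with the lower. This count moved widely with single libraries. Leaving out hypoxia TAC mouse 2 or 4 gave 946 or 606 genes, and leaving out normoxia TAC mouse 1, 2 or 5 gave 639, 639 or 684. Leaving out hypoxia TAC mouse 1, 5 or 6 gave 179, 114 or 170 genes, and hypoxia sham mouse 1, 2, 3, 4 or 6 gave 148, 143, 113, 105 or 162. Without normoxia TAC mouse 4 it was 181, and without normoxia sham mouse 2, 4, 5 or 6 it was 93, 141, 150 or 132. DESeq2 called 919 genes and limma-voom 1497. In the clock repressor list 7 of 14 genes were called, all higher in hypoxia. For Ciart the log2 change with TAC was 1.31 ± 0.17 in hypoxia and -2.31 ± 0.25 in normoxia, with a difference of 3.62 ± 0.35, adjusted p = 2.65e-06. The values in hypoxia are from the 12 libraries and the others from all 24. For Per2 it was 2.02 ± 0.25 in hypoxia and -0.68 ± 0.27 in normoxia (2.7 ± 0.39, adjusted p = 0.00213), and for Arntl -0.97 ± 0.13 in hypoxia and 0.99 ± 0.36 in normoxia (-1.96 ± 0.50, adjusted p = 0.044). The change of Ciart passed the test in both oxygen conditions, in opposite directions. That of Arntl passed in normoxia and, among the 12 libraries, in hypoxia, but in the fit of 24 libraries its change in hypoxia did not pass (adjusted p = 0.0713), and the change of Per2 in normoxia did not pass either. The differences for Per1 (2.3 ± 0.42), Per3 (2.02 ± 0.46), Usp2 (1.66 ± 0.30), Cry2 (1.19 ± 0.28), Tef (1.42 ± 0.31) and Npas2 (-1.55 ± 0.41) were called too. Of these 9 clock genes Ciart, Per2, Per1, Usp2 and Tef kept the called difference without each of the 24 libraries in turn, and Arntl, Per3, Cry2 and Npas2 lost it without 1 library or another.

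**Figure D5:**
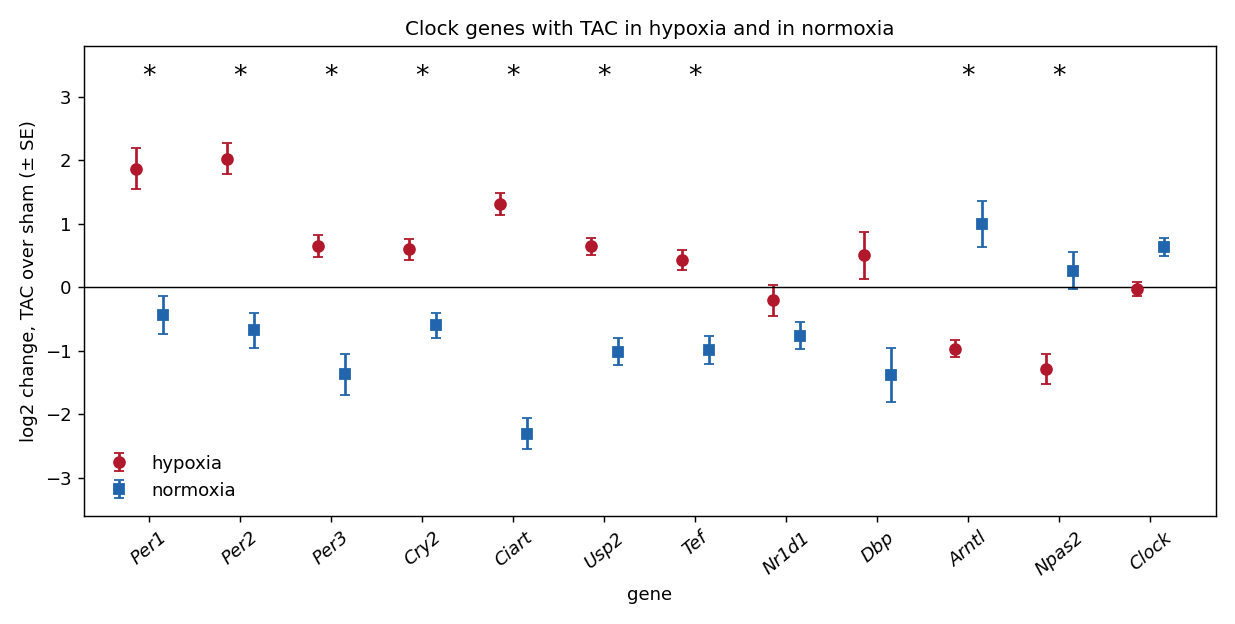
Log2 change of 12 clock genes with TAC in hypoxia (left point of each pair, fit of 12 libraries) and in normoxia (right point, fit of 24 libraries), with SE as bars; a star marks a called difference of both. Ciart stands at 1.31 ± 0.17 in hypoxia and -2.31 ± 0.25 in normoxia.

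Among myocyte genes the difference was called for Nppb (-3.65 ± 0.89, adjusted p = 0.0406) and Rcan1 (-3.99 ± 1.01, adjusted p = 0.0437), where the log2 changes in hypoxia, 0.87 ± 0.62 and 1.38 ± 0.64, were below those of 4.51 ± 0.71 and 5.38 ± 0.83 in normoxia, and for Tcap (1.89 ± 0.38, adjusted p = 0.0176), which was 1.23 ± 0.24 in hypoxia and -0.66 ± 0.27 in normoxia. The difference was lost without 1 library or another for Nppb (highest adjusted p = 0.0736) and Rcan1 (highest adjusted p = 0.0835), and was kept without each library for Tcap. Nppa (-0.71 ± 0.56, adjusted p = 0.487), Myh7 (-0.94 ± 0.41, adjusted p = 0.191) and Col1a1 (-0.52 ± 0.78, adjusted p = 0.739) showed no called difference. Adam19 was -1.03 ± 0.20 in hypoxia and 1.51 ± 0.28 in normoxia (-2.55 ± 0.40, adjusted p = 0.00479). Sox17 (1.75 ± 0.40, adjusted p = 0.0279), Gpihbp1 (0.99 ± 0.25, adjusted p = 0.0427) and Foxo3 (1.67 ± 0.35, adjusted p = 0.0189) were higher in hypoxia, as were the oxygen-regulated Hif3a (2.79 ± 0.70, adjusted p = 0.0408), Ankrd63, Tmem179, Ppl and Sdk2. On the lower side stood the deiodinase gene Dio2 (-2.78 ± 0.65, adjusted p = 0.0294), B3galt2, Clec7a, Adgre4 and Tmem171. Of the genes from Adam19 to Tmem171 only Adam19, Foxo3, Ankrd63 and Ppl kept the call without each of the 24 libraries in turn. The 3 glucocorticoid targets Fkbp5 (1.46 ± 0.58), Sgk1 (0.65 ± 0.36) and Lcn2 (-0.21 ± 1.0) were not called, and for the list 4 of 22 members were called, all higher in hypoxia (Per1, Usp2, Zbtb16 and Arrdc2). The interval of a difference that was not called can include large values, such as those of Fos (-2.63 ± 1.86) and Spp1 (-1.34 ± 2.52).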

How the data were processed

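RNA from the apex of the heart was sequenced in 24 libraries, of which the 12 from hypoxia were compared. The authors deposited raw read counts per gene for all libraries. Reads were processed with STAR 2.7.3a, bcl2fastq 2.20.0.422 and Subread 2.0.0 with its featureCounts, and the build is GRCm39, per the submitters' processing notes. The strand setting of the counting is not given in the sources used here, so overlapping, antisense and near-identical genes are uncertain.

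Counts were scaled by TMM and genes kept by filterByExpr (minimum count 10, total 15). Robust quasi-likelihood F tests of edgeR 4.0.16 (R 4.3.3) compared hypoxia TAC with hypoxia sham without a block, at a Benjamini-Hochberg adjusted p under 0.05. The SE of a log2 change was derived from this test, as its absolute value over the square root of F. The difference from normoxia was an interaction term over 24 libraries. DESeq2 1.42.0 and limma 3.58.1 (voom with quality weights) were alternatives. The edgeR fits were tested on simulated data, in which a gene had the same spread in all groups. Such data do not cover the wider spread of the TAC mice seen here. Named genes were the 15 largest rises and 15 largest falls with a mean of at least 1 CPM, in each list the 6 genes of lowest p, the 8 largest interaction terms in each direction and a panel. Arrdc2, Btg2, Cdh5, Cdkn1a, Clock, Cry2, Dusp1, Emcn, Hba-a2, Nr1d2, Nr3c1, Pde4b, Pecam1, Sox18, Tef and Zbtb16 were named after their values were seen. Some genes that the rule names are not reported here. The comparison, gene lists and panel were chosen with earlier results of these data known. Promoters came from RefSeq (GRCm38.p6), and the files' build was not used for coordinates.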

Additional observations from a re-analysis of the deposited data

Results flagged for a closer look

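Among the 472 sets of 6 samples examined (each gene named in the text, hypoxia TAC and hypoxia sham apart, on log2 of CPM plus 0.5), 25 held a sample far from the other 5, and chance alone flags about 1 in 20. Hypoxia TAC mouse 1 stood apart in Smad7 (5.05 CPM). Hypoxia TAC mouse 3 stood apart in Ccl6 (204 CPM) and S100a10 (75.6 CPM). Hypoxia TAC mouse 4 stood apart in Masp1 (17 CPM). Hypoxia TAC mouse 6 stood apart in Canx (437 CPM), Id1 (125 CPM), Mustn1 (20.2 CPM), Nr4a2 (5 CPM) and Tcap (5885 CPM). Hypoxia sham mouse 1 stood apart in Adam8 (1.48 CPM), Ccn2 (10.1 CPM) and Timp1 (4.25 CPM). Hypoxia sham mouse 2 stood apart in Col8a1 (42.6 CPM). Hypoxia sham mouse 3 stood apart in Pla2g2d (2.7 CPM). Hypoxia sham mouse 4 stood apart in Dusp1 (103 CPM). Hypoxia sham mouse 5 stood apart in Ednrb (37 CPM), Klra9 (1.92 CPM), Myh7 (417 CPM), Osmr (23.2 CPM), Slc16a3 (1.74 CPM) and Vtn (40.9 CPM). Hypoxia sham mouse 6 stood apart in Enah (59.9 CPM), Selp (1.92 CPM), Socs3 (21 CPM) and Tgm2 (195 CPM). 

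A test of the difference itself, an interaction term in edgeR over 24 libraries at an adjusted p under 0.05, separated the response to TAC in hypoxia from that in normoxia for 32 genes named in the text. The log2 change in hypoxia minus that in normoxia was above 0 for Ankrd63 (3.64), Arrdc2 (2.16), Ciart (3.62), Cry2 (1.19), Flt1 (0.69), Foxo3 (1.67), Gpihbp1 (0.99), Hif3a (2.79), Per1 (2.3), Per2 (2.7), Per3 (2.02), Ppl (2.66), Sdk2 (2.59), Sox17 (1.75), Tcap (1.89), Tef (1.42), Tmem179 (2.72), Usp2 (1.66) and Zbtb16 (1.59). It was below 0 for Adam19 (-2.55), Adgre4 (-2.34), Arntl (-1.96), B3galt2 (-2.69), Cacna2d1 (-0.6), Canx (-0.44), Cd55 (-1.15), Clec7a (-2.69), Dio2 (-2.78), Npas2 (-1.55), Nppb (-3.65), Rcan1 (-3.99) and Tmem171 (-2.12). Of these 32 differences 12 kept an adjusted p under 0.05 without each of the 24 libraries in turn.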

How the results depend on the processing

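No gene named in the text changed direction past the threshold under any alternative run. The number of called genes was 1270 with the replicate number as a block and 4027 without TAC mice 1 and 4, an alternative added after the data were seen, which also gave 1111 genes called at least 2-fold. Without single libraries it lay between 969 and 3605, the number called at least 2-fold between 323 and 848, and the number of called differences from normoxia between 93 and 946. That last number was 135 with no filter, 919 with DESeq2 and 1497 with limma-voom. The cause of these shifts was not tested. RLE scaling shared 2049 of the 2086 calls and DESeq2 2078. Of 212 called genes named in the text 115 kept their call without each of the 12 libraries in turn, 57 lost it under the block, 50 in the fit of all 24 libraries and 71 with no filter. Among called genes 55.1% were higher by edgeR, 48.8% by limma-voom and 49.8% under the block. Deviations of TAC and sham mice of the same number correlated at -0.12 to 0.10, and 2 of 6 mice matched best with their own number. These values cannot settle whether mice of the same number share a batch, which the labels do not give. Without TAC mice 3 and 4 the number of called members moved by more than 1.5 times in 12 of 57 lists, and without TAC mice 1 and 4 in 27. Without the filter 14 of 133 untested list genes were called. Sequencing depth limits low genes, and 6 mice that differ this much limit the rest.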
